A study of Homo sapiens with 12 samples.

Results

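Interferon-stimulated genes are the antiviral and regulatory genes that cells switch on when interferon binds its receptor. The 43 genes described here were taken by name from the deposited expression tables of LP-1 and U266, 2 human multiple myeloma cell lines, that is, lines of malignant plasma cells. All 43 were listed in both tables, among 61806 genes for LP-1 and 19130 for U266 (RIGI under its older symbol DDX58 in U266). Each line formed 2 groups of 3 RNA-seq libraries, 4 groups and 12 libraries in all. In the treated groups, cells received dihydroartemisinin (DHA), the active metabolite of the artemisinin antimalarials, at its IC50, for 12 h. The control groups received the same amount of the solvent dimethyl sulfoxide (DMSO). The question here was whether DHA moved interferon-stimulated RNAs within each line, and whether it did so to the same extent in both. Because these are bulk samples of whole cultures, fewer cells making an RNA and less of it per cell cannot be told apart.

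As background, type I interferons bind the receptor chains IFNAR1 and IFNAR2, and the kinases JAK1 and TYK2 then phosphorylate signal transducers such as STAT2. A factor that holds STAT2 and IRF9 binds the interferon-stimulated response element (ISRE) in promoters, while the response to interferon gamma runs through another element, the gamma-activated site (GAS). The genes switched on include sensors of viral RNA, the ubiquitin-like protein ISG15 with its conjugation enzymes, RNA-binding and RNA-degrading proteins, and membrane or capsid-binding proteins that block virus entry and release.

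The promoter window was read from RefSeq (GRCh38.p14) as 250 bases before to 50 bases after each annotated start. It was held for 34 of the 43 genes. The letters GAAA, any 2 bases and GAAA again, the core of the ISRE, were searched on both strands and lay in the windows of 23 of the 34 genes (67.65%), against 4.38% of all 27305 genes with such windows. The letters TTCNNNGAA of the GAS lay in 12 of the 34 (35.29%), against 9.38% of all. The letters of the ISRE and the GAS were counted separately even where they overlapped, and a match is a description of the letters, not evidence of a bound factor. Of the genes on which the results turn or which stand for their role, UBE2L6, IFI35 and XAF1 held no ISRE letters in their windows and are not shown. For 9 others, 30 bases are shown from 1 window each, around the ISRE copy that lies upstream and closest to that window's start site. They are written 5′ to 3′ on the gene's strand, with these ISRE letters, or their reverse complement, in capitals.
ISG15 (chr1:1013377-1013406, plus strand, 2 overlapping copies): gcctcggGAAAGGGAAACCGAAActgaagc
MX1 (chr21:41431844-41431873, plus strand, with another window holding a copy after its start): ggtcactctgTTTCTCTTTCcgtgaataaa
IFI6 (chr1:27672266-27672295, minus strand, the nearest of 3 copies): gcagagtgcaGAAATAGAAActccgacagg
IFIT3 (chr10:89332468-89332497, plus strand, the nearer of 2 copies in this window, with 2 more in another): gttccatcagTTTCACTTTCctttcccctt
PARP14 (chr3:122680800-122680829, plus strand): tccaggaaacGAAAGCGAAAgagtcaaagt
IFIH1 (chr2:162318686-162318715, minus strand, the nearest of 3 copies): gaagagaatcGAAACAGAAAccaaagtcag
BST2 (chr19:17405738-17405767, minus strand, 2 overlapping copies): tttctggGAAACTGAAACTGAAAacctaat
SAMD9 (chr7:93118096-93118125, minus strand): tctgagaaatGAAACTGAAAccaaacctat
PLSCR1 (chr3:146544667-146544696, minus strand): cgggaaccggGAAAAGGAAAccgtgttgtg

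The libraries held 12690000 to 16450000 reads in genes for LP-1 and 10450000 to 22070000 for U266, as recovered from the steps between low values. Even numbers were more frequent among the low recovered reads of 5 U266 libraries than in LP-1 or in U266 DHA replicate 3. Whether 1 recovered read is the same unit in all libraries was not tested. Values are FPKM, read numbers scaled by gene length and by library size, and were compared only within a line because the 2 tables were made separately. U266 DHA replicate 3 stood apart: 18399 genes were above 0 in it against 14682 to 14992 in the other 5 libraries of the line. Its summed FPKM was 9.01 for 5 B cell markers (at most 1.58 in the other 5), 10.4 for 7 T and NK cell markers (at most 2.82), 5.46 for 5 monocyte markers (at most 1.51) and 7.38 for 3 plasmacytoid dendritic cell markers (at most 2.94). The tests of U266 genes that passed the filter given below were therefore repeated without that library, with results given where a call changed. Fits with no filter were not repeated without it. Neither were the counts of tested members by overlap of groups or by level in DMSO. Of 9 plasma cell markers 8 reached 1 FPKM in each line, and their summed FPKM was 3890 to 4683 with DMSO and 3565 to 3817 with DHA in LP-1. In U266 the sum was 2203 to 2249 with DMSO and 1363 to 1505 with DHA. The sums hide opposite changes in LP-1, where 2 of 8 tested plasma cell markers rose and 4 fell (20% and 20.2% of all genes). There the mean of IRF4 went from 79.9 to 253 FPKM and that of SDC1 from 30.9 to 5.16. In U266, 0 of 8 rose and 5 fell (21.1% and 19.6% of all genes), and 4 fell without DHA replicate 3. In LP-1 the B cell, T and NK cell, monocyte and plasmacytoid dendritic cell markers summed to at most 2.61, 0.2, 0.29 and 1.04 FPKM, with CD3D, CD3G, FCGR3A and LILRA4 at 0 in every library. The stromal and endothelial sum in LP-1 was 3.97 to 5.29 FPKM with DMSO and 1.57 to 1.67 with DHA, and in U266 it was 1.02 to 1.45 with DMSO and 1.70 to 5.15 with DHA. In U266 the erythroid sum was 9.97 to 11.2 FPKM with DMSO and 6.71 to 7.31 with DHA, and in LP-1 it was 0.1 to 0.11 with DMSO and 0.31 to 0.7 with DHA. The part of these marker levels in the results was not tested.

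In U266, 30 of the 43 interferon-stimulated genes were tested, of which DHA raised 22 and lowered 4. Of all 10422 genes tested in that line, 21.1% rose and 19.6% fell, with a gene tested where it reached 1 FPKM in at least 3 of the 6 libraries, and called at an adjusted p under 0.05 (limma on log2(FPKM + 1)). A further 4 genes were tested and did not pass, and 13 were below the filter. The median log2 change of the 30 tested members was 0.70, against 0.02 for all genes tested. Of those 30, IFIT3, OASL, IFITM1, PARP9, IFI27 and IFI44 reached 1 FPKM in no DMSO library, so that they entered the test only through DHA. Among the 21 members that reached 1 FPKM in all 3 DMSO libraries, 13 rose, 4 fell and 4 did not pass. Of 9912 such genes, 20.9% rose and 20.6% fell. The median log2 change of these 21 members was 0.52. Without DHA replicate 3, 23 rose and 4 fell, against 21.3% and 20.6% of all genes. In 25 of the 30 all DHA libraries lay above all DMSO libraries and in 4 below, against 27.6% and 23.9% of all genes tested. The 6 members that entered only through DHA are among the 25 because of the filter itself. With no filter on low values, 25 of the 43 rose and 4 fell, against 8.99% and 8.7% of 18552 genes. The median log2 change was then 0.53 against 0.12 for all genes, with DHA replicate 3 included in this fit.

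**Figure D1:**
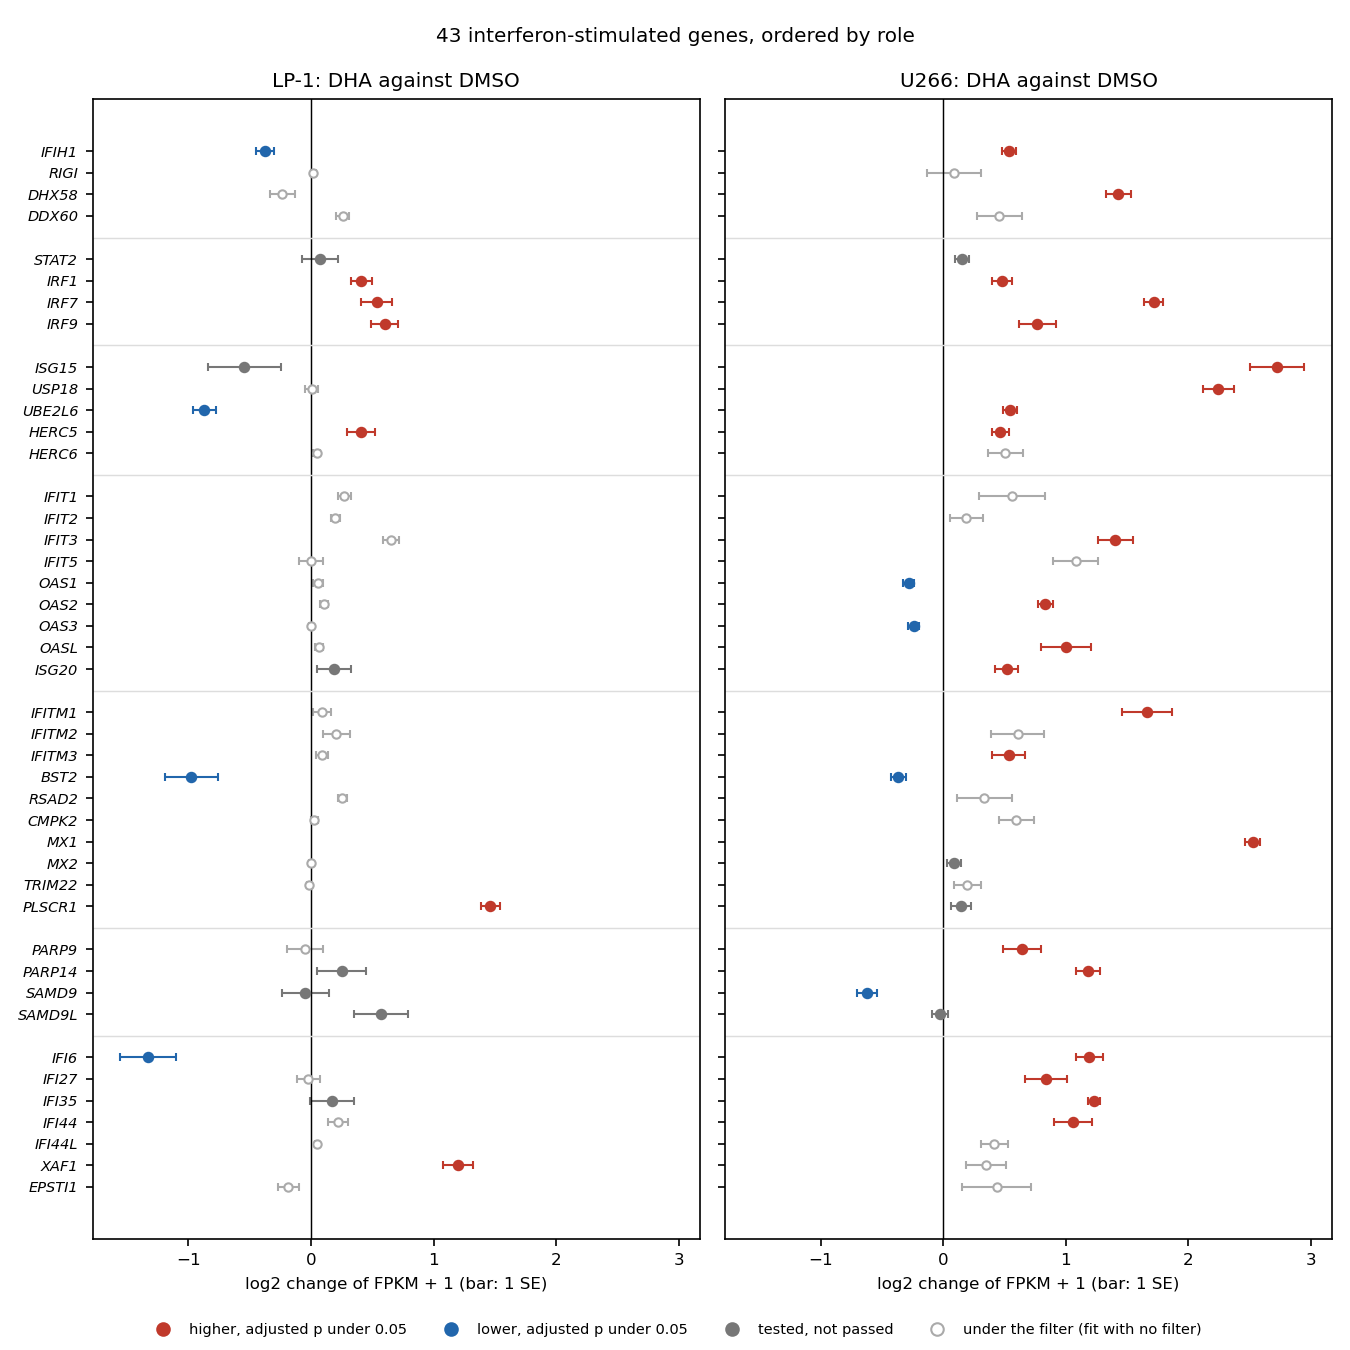
Log2 change of FPKM + 1 with DHA for the 43 interferon-stimulated genes in LP-1 (left) and U266 (right), grouped by role from sensors at the top to other induced proteins at the bottom; points are fitted changes and bars 1 SE, from 3 against 3 libraries. In U266 22 points are called higher and 4 lower, in LP-1 6 higher and 4 lower; open grey points lie under the filter on low values, and MX1 has no point in LP-1 because it was at 0 in every library.

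Among the sensors of viral RNA, IFIH1 (also MDA5, a sensor of long double-stranded RNA) measured 16.7, 15.5 and 16.5 FPKM in the 3 DMSO libraries of U266 and 23.0, 25.4 and 23.6 with DHA. All DHA libraries lay above all DMSO libraries, a log2 change of 0.53 ± 0.06 (SE, adjusted p = 5.81e-05). DHX58 (chr17:42101404-42112733, GRCh38, GENCODE v29), the LGP2 protein that modulates the other sensors, went from 1.40, 1.25 and 1.40 FPKM to 5.32, 5.02 and 5.63. That is a 3.95-fold rise between the means, with a log2 change of 1.43 ± 0.10 (SE, adjusted p = 3.36e-06) and no overlap. RIGI (or RIG-I), the sensor of short viral RNA, and DDX60 were below the filter.

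Of the transcription factors, IRF7 (chr11:612553-615999, GRCh38), which drives further interferon production, rose furthest. It measured 5.83, 5.03 and 6.24 FPKM with DMSO and 19.9, 21.8 and 21.3 with DHA. The groups were far apart, with a fold of 3.68 and a log2 change of 1.72 ± 0.08 (SE, adjusted p = 1.49e-07). IRF9, the DNA-binding subunit that joins STAT2, rose from 0.805, 1.30 and 0.781 to 2.27, 2.11 and 2.59 FPKM, a log2 change of 0.77 ± 0.15 (SE, adjusted p = 0.00244). Its level is uncertain, since 48.4% of its exon bases are shared on the same strand with an annotated readthrough gene. IRF1, a factor that interferon gamma induces strongly, went from 4.17, 4.41 and 4.53 to 6.89, 6.23 and 6.30 FPKM, with a log2 change of 0.48 ± 0.08 (SE, adjusted p = 9.81e-04). The antisense gene IRF1-AS1 overlaps 22.0% of its exon bases, and no source used here says that strand was kept in counting. STAT2 measured 16.9, 17.5 and 16.2 FPKM with DMSO and 19.1, 19.5 and 18.0 with DHA. Its groups did not overlap, but the log2 change of 0.15 had an adjusted p of 0.056, and of 0.0333 without DHA replicate 3, and it passed at a mean of 5 FPKM as well.

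The ISG15 system held 2 of the 3 largest log2 changes of the tested members. ISG15 itself, the ubiquitin-like modifier, measured 0.559, 1.75 and 1.76 FPKM with DMSO and 18.5, 12.7 and 11.7 with DHA. The lowest DHA library was several times the highest DMSO library, with a fold of 10.6 between the means and a log2 change of 2.72 ± 0.22 (SE, adjusted p = 9.41e-06). The DMSO values rest on few reads, 10, 36 and 24 per library, against 180, 172 and 181 with DHA. USP18 (chr22:18149899-18177397, GRCh38), the protease that removes ISG15 and also blocks the interferon receptor, went from 0.989, 1.33 and 1.13 to 8.78, 7.93 and 11 FPKM. Its fold was 8.02, with a log2 change of 2.24 ± 0.12 (SE, adjusted p = 6.15e-07). UBE2L6, the conjugating enzyme for ISG15, rose from 31.3, 35.3 and 33.6 to 49.2, 51.0 and 47.3 FPKM, a log2 change of 0.54 ± 0.06 (SE, adjusted p = 4.21e-05). HERC5, the ISG15 ligase, rose by a log2 change of 0.47 (adjusted p = 3.68e-04). All 4 tested genes of the system rose, where 21.1% of all genes did, and HERC6, a related ligase gene, was below the filter.

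The RNA-binding and RNA-degrading group moved in both directions. IFIT3, which partners IFIT1 in binding viral RNA, measured 0.559, 0.746 and 0.548 FPKM with DMSO and 2.93, 3.03 and 3.93 with DHA. Every DHA library was above every DMSO library, and the log2 change was 1.40 ± 0.14 (SE, adjusted p = 3.63e-05). The oligoadenylate synthetases, which make the second messenger that activates RNase L, did not move together. OAS2 rose from 42.7, 36.9 and 41.8 to 73.4, 73.9 and 70.5 FPKM, a log2 change of 0.83 ± 0.06 (SE, adjusted p = 3.63e-06). OAS1 fell from 109.9, 110.3 and 110.1 to 91.3, 92.7 and 87.0 FPKM, a log2 change of -0.28 ± 0.04 (SE, adjusted p = 6.68e-04). OAS3 fell from 100.3, 97.7 and 101 to 86.6, 84.9 and 81.2 FPKM, a log2 change of -0.24 ± 0.05 (SE, adjusted p = 0.00198). The 3 genes are neighbours on chromosome 12, and in each the groups did not overlap. OASL, the related protein that enhances RIG-I signalling, rose from 0.539, 0.521 and 0.588 to 1.43, 1.84 and 3.33 FPKM, with DHA replicate 3 the highest. Its log2 change was 1.00 ± 0.21 (SE, adjusted p = 0.0034), and 0.76 without DHA replicate 3. ISG20, an RNA exonuclease, rose by a log2 change of 0.52 (adjusted p = 0.00155).

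Among the membrane, capsid and virion factors, MX1, a dynamin-like GTPase that traps viral nucleocapsids, had the smallest adjusted p of the members tested in U266. It measured 5.05, 4.87 and 4.87 FPKM with DMSO and 34.6, 31.3 and 33.5 with DHA. The groups were tight and far apart, 4.93 ± 0.101 against 33.1 ± 1.67 FPKM (SD, n = 3), a fold of 6.72 and a log2 change of 2.52 ± 0.06 (SE, adjusted p = 1.08e-09). Its paralogue MX2 was 14.2, 13.6 and 13.2 FPKM with DMSO and 14.3, 14.6 and 14.8 with DHA, a log2 change of 0.09 (adjusted p = 0.252) that was -0.02 under TMM-style scaling. IFITM1, an entry inhibitor in the cell membrane, went from 0.0975, 0.424 and 0.638 to 4.48, 3.22 and 2.48 FPKM, a log2 change of 1.66 ± 0.20 (SE, adjusted p = 1.37e-04). IFITM3, its endosomal relative, went from 1.64, 1.70 and 2.15 to 3.74, 2.78 and 2.80 FPKM, a log2 change of 0.53 ± 0.13 (SE, adjusted p = 0.00936), and did not pass when recovered reads were tested with voom (adjusted p = 0.0679). The IFITM genes are similar in sequence, and IFITM1 shares 32.5% of its exon bases with IFITM2 on the same strand. The split of reads among them is therefore uncertain. BST2, or tetherin, which holds budding virions on the cell surface, fell from 159, 171 and 165 to 139, 126 and 119 FPKM. Its groups did not overlap, with a log2 change of -0.37 ± 0.06 (SE, adjusted p = 0.00101), which was lost when all 12 libraries were fitted together (adjusted p = 0.117). PLSCR1, a phospholipid scramblase with antiviral activity, measured 8.19, 9.36 and 9.39 FPKM with DMSO and 11, 9.39 and 9.74 with DHA, where the lowest DHA library only just exceeded the highest DMSO library (adjusted p = 0.177).

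PARP14, an ADP-ribosyltransferase, rose from 2.05, 2.12 and 2.51 to 6.57, 6.45 and 5.86 FPKM, a log2 change of 1.18 ± 0.10 (SE, adjusted p = 9.52e-06) with groups that did not overlap. PARP9 rose by a log2 change of 0.64 (adjusted p = 0.00879). SAMD9, a restriction factor that acts on translation, fell from 21.9, 18.1 and 22.1 to 13.3, 13.6 and 12.2 FPKM, the largest fall among the members, with a log2 change of -0.62 ± 0.08 (SE, adjusted p = 1.85e-04). Its neighbour SAMD9L, at 28.9 to 32.8 FPKM with DMSO and 29.3 to 32.5 with DHA, did not pass (adjusted p = 0.768).

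All 4 tested genes of the remaining group rose, where 21.1% of all genes did, and 2 of them, IFI27 and IFI44, entered the test only through DHA. IFI6, a small mitochondrial and endoplasmic reticulum protein, went from 12.3, 13.9 and 12.3 to 36.4, 25.3 and 30.8 FPKM, a log2 change of 1.19 ± 0.11 (SE, adjusted p = 2.10e-05). IFI35, a leucine zipper protein, went from 12.3, 11.9 and 12.0 to 30.4, 29.7 and 28.9 FPKM, a log2 change of 1.23 ± 0.05 (SE, adjusted p = 7.73e-08). IFI44 went from 0.155, 0.225 and 0.237 to 1.47, 1.57 and 1.5 FPKM, a log2 change of 1.06 ± 0.16 (SE, adjusted p = 4.68e-04). In each of the 3 genes the groups did not overlap. IFI27 rose by a log2 change of 0.84 (adjusted p = 0.00329).

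**Figure D2:**
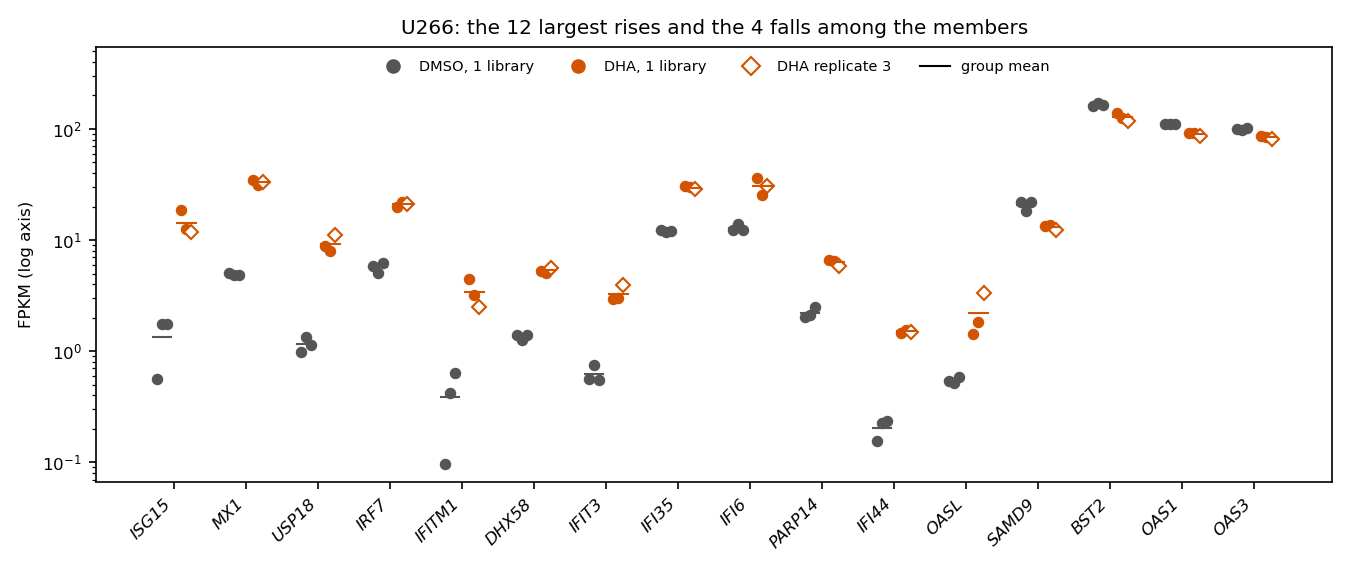
FPKM per library on a log axis in U266 for the 12 members with the largest rises and the 4 that fell; grey points are DMSO, orange points DHA, open diamonds DHA replicate 3 and short lines group means. In all 16 genes the DHA and DMSO libraries do not overlap, and in OASL DHA replicate 3 (3.33 FPKM) lies above the other DHA libraries (1.43 and 1.84).

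The 13 members below the filter in U266 were RIGI, DDX60, HERC6, IFIT1, IFIT2, IFIT5, IFITM2, RSAD2, CMPK2, TRIM22, IFI44L, XAF1 and EPSTI1. In 10 of them all DHA libraries were above all DMSO libraries, where 11.5% of 8130 genes below the filter did so, and in 0 all DHA libraries were below (0.713%). DHA replicates 1 and 2 alone were above all DMSO libraries in 10 as well (12.1% of those genes). DHA replicate 3 was the highest library in 10 of the 13, as in 85.8% of genes below the filter. IFIT5, an RNA-binding relative of IFIT3, measured 0.0262, 0.194 and 0.137 FPKM with DMSO and 1.93, 1.31 and 0.942 with DHA, and its DHA replicate 3 was the lowest treated library. EPSTI1 measured 0, 0.0186 and 0.0280 with DMSO and 0.118, 0.0564 and 1.19 with DHA, and RIGI 0.266, 0.168 and 0.253 against 0.0445, 0.160 and 0.826. In both genes most of the treated mean came from DHA replicate 3. RSAD2, or viperin, was at 0 in the 3 DMSO libraries and in DHA replicate 2.

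**Figure D3:**
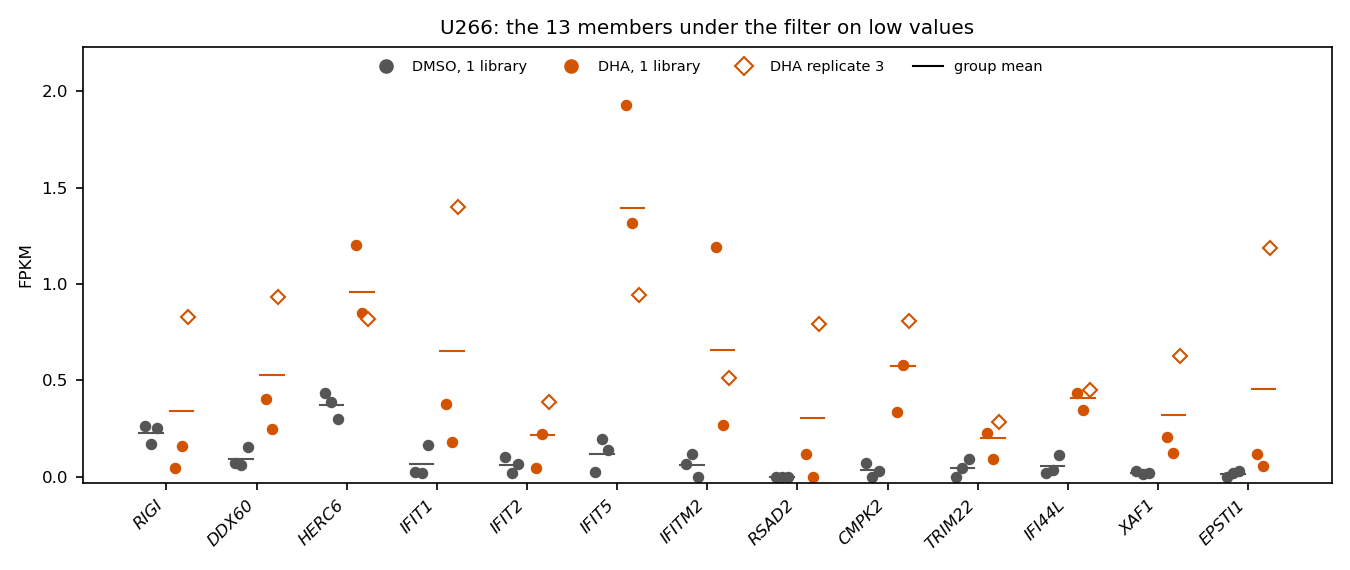
FPKM per library in U266 for the 13 members below the filter on low values; grey points are DMSO, orange points DHA, open diamonds DHA replicate 3 and short lines group means. In IFIT5 and HERC6 DHA replicate 3 is the lowest treated library, whereas RIGI, RSAD2 and EPSTI1 are highest in it, with the other DHA libraries near the DMSO values.

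In LP-1, 17 of the 43 members were tested, of which 6 rose with DHA and 4 fell, against 20% and 20.2% of 12514 genes tested in that line. Another 7 were tested and did not pass, and 26 were below the filter. The median log2 change of the 17 tested members was 0.19, against 0.01 for all genes. HERC5 and XAF1 reached 1 FPKM in no DMSO library, so that they entered the test only through DHA. Among the 13 members that reached 1 FPKM in all 3 DMSO libraries, 3 rose, 4 fell and 6 did not pass. Of 11249 such genes, 19.2% rose and 22.4% fell. The median log2 change of these 13 members was 0.17. In 7 of the 17 all DHA libraries lay above all DMSO libraries and in 4 below, against 30.2% and 28.6% of all genes tested. HERC5 and XAF1 are among the 7 because of the filter itself. With no filter on low values, 42 were tested, of which 10 rose and 4 fell, against 6.84% and 7.6% of 31244 genes. DMSO replicate 3 stood apart from the other LP-1 controls.

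On the log2(FPKM + 1) scale PLSCR1 rose furthest in LP-1, from 6.70, 6.90 and 7.71 to 21.3, 20.9 and 21.7 FPKM. The groups were tight and did not overlap, 7.10 ± 0.535 against 21.3 ± 0.375 FPKM (SD, n = 3), a log2 change of 1.46 ± 0.08 (SE, adjusted p = 1.20e-04). XAF1, an antagonist of the apoptosis inhibitor XIAP, went from 0.39, 0.4 and 0.15 to 2.23, 1.84 and 1.97 FPKM, a fold of 6.43 between the means, above the 3.00 of PLSCR1, and a log2 change of 1.20 ± 0.12 (SE, adjusted p = 9.30e-04). An unstranded count could not tell it from PRAL, which overlaps 38.3% of its exon bases on the other strand.

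IRF9, IRF7 and IRF1 rose in LP-1 as well. IRF9 went from 0.82, 1.08 and 0.76 to 1.95, 1.70 and 1.91 FPKM, a log2 change of 0.60 ± 0.11 (SE, adjusted p = 0.00637). IRF7 went from 1.71, 1.16 and 1.51 to 2.63, 2.84 and 2.21 FPKM, a log2 change of 0.54 ± 0.12 (SE, adjusted p = 0.0165), which did not pass without DHA replicate 1 or 2 (at most 0.0713). IRF1 went from 2.43, 1.96 and 2.22 to 3.32, 3.22 and 3.22 FPKM, a log2 change of 0.41 ± 0.09 (SE, adjusted p = 0.013), which did not pass without any 1 of the DHA libraries (at most 0.0617). In the 3 genes the groups did not overlap. STAT2 measured 18.5, 19 and 13 FPKM with DMSO and 16.9, 18.2 and 17.5 with DHA, which overlap (adjusted p = 0.719).

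Of the genes that fell in LP-1, IFI6 fell furthest. It measured 4.37, 4.67 and 8.10 FPKM with DMSO and 2.07, 1.34 and 1.43 with DHA. All DHA libraries lay below all DMSO libraries, a fold of 3.54 between the means and a log2 change of -1.33 ± 0.23 (SE, adjusted p = 0.00536). BST2 went from 142, 118 and 216 to 75.2, 80.3 and 77.6 FPKM, a log2 change of -0.98 ± 0.21 (SE, adjusted p = 0.0136), and did not pass without DHA replicate 1 or 3 (at most 0.0545). UBE2L6 went from 41.0, 38.8 and 44.5 to 23.6, 23.0 and 20.1 FPKM, a log2 change of -0.87 ± 0.09 (SE, adjusted p = 0.00113). IFIH1 went from 7.46, 7.82 and 7.33 to 5.78, 5.30 and 5.63 FPKM, a log2 change of -0.38 ± 0.07 (SE, adjusted p = 0.00879), and did not pass without DHA replicate 2 (0.0523). The groups did not overlap in any of these 4 genes.

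The ISG15 system did not move as a block in LP-1. ISG15 measured 1.2, 0.77 and 2.32 FPKM with DMSO and 0.54, 1.19 and 0.24 with DHA. The groups overlap, and the log2 change of -0.54 ± 0.30 (SE) had an adjusted p of 0.182, on 3 to 34 reads per library. HERC5 went from 0.64, 0.7 and 0.87 to 1.11, 1.26 and 1.55 FPKM, a log2 change of 0.41 (adjusted p = 0.0337), and lost its call with no filter, with quantile normalization and without any library but DMSO replicate 3 (adjusted p at most 0.117). SAMD9L, a growth-restricting relative of SAMD9, measured 9.82, 12.1 and 5.96 FPKM with DMSO and 13.8 in each of the DHA libraries. Its groups did not overlap, but the adjusted p was 0.082, and it passed without DMSO replicate 2 or 3 and with all 12 libraries in 1 fit (as low as 0.0128). The other tested members, SAMD9, PARP14, IFI35 and ISG20, had overlapping groups. IFI35 alone of these passed without DMSO replicate 3 (adjusted p = 0.0168).

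**Figure D4:**
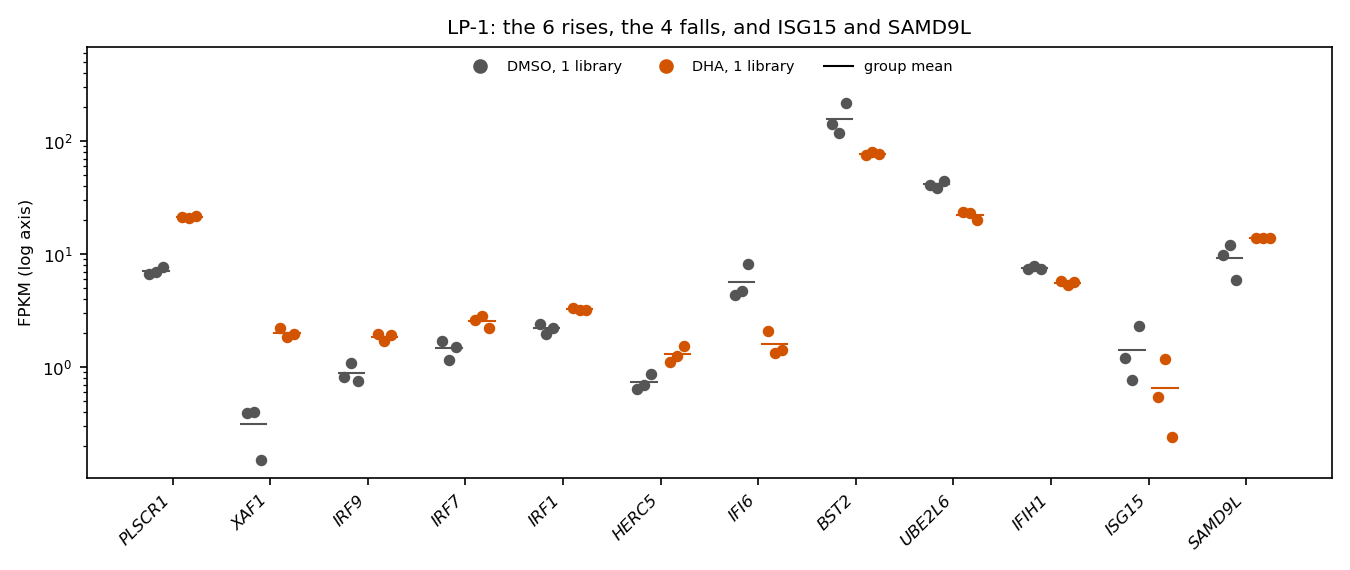
FPKM per library on a log axis in LP-1 for the 6 members that rose, the 4 that fell, and ISG15 and SAMD9L, which did not pass; grey points are DMSO, orange points DHA and short lines group means. DHA and DMSO libraries do not overlap except in ISG15, and the DMSO libraries span the widest ratios in ISG15 (0.77 to 2.32 FPKM) and XAF1 (0.15 to 0.4).

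The 26 members below the filter in LP-1 included MX1, at 0 in all 6 libraries, which allows up to 0.0199 to 0.0259 FPKM per library (3 reads, counting error only). Of the other 25, all DHA libraries were above all DMSO libraries in 9 and below in 2, against 6.64% and 9.43% of 18730 genes below the filter. Some of these sat on few reads but were called when no filter was set. IFIT3 measured 0.13, 0.12 and 0.1 FPKM with DMSO and 0.71, 0.77 and 0.78 with DHA, on 4 to 5 and 28 to 36 reads, and its log2 change was 0.65 (adjusted p = 0.00359 with no filter). RSAD2 measured 0.08, 0.07 and 0.05 against 0.29, 0.27 and 0.26 FPKM (adjusted p = 0.0087 with no filter). IFIT1, IFIT2 and DDX60 were called higher in the same way, with adjusted p of 0.0244, 0.025 and 0.0281. OAS1, OAS2, OAS3 and MX2 were at 0.23 FPKM or less in every LP-1 library.

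The DHA effects of the lines were compared directly over the 16 members kept in both, as the U266 log2 change minus that of LP-1. At an adjusted p under 0.05, the difference was positive in 7 members and negative in 1, against 16.1% and 18.6% of 8870 genes. With no filter it passed as positive in 20 of 42 and as negative in 4, against 11.3% and 10.4% of 15598 genes. ISG15 differed most, by 3.26 ± 0.41 (SE, adjusted p = 1.47e-04), having risen in U266 and not passed in LP-1. In IFI6, UBE2L6 and IFIH1 the RNA rose in U266 and fell in LP-1. IFI6 differed by 2.52 ± 0.27 (SE, adjusted p = 4.76e-05), UBE2L6 by 1.41 ± 0.11 (SE, adjusted p = 7.35e-06) and IFIH1 by 0.91 ± 0.09 (SE, adjusted p = 3.46e-05). IRF7 rose in both lines and by more in U266, with a difference of 1.18 ± 0.15 (SE, adjusted p = 1.49e-04). IFI35 and PARP14 rose in U266 and did not pass in LP-1, with differences of 1.06 (adjusted p = 0.00158) and 0.93 (adjusted p = 0.00816). PLSCR1 was the reverse, with a difference of -1.32 ± 0.11 (SE, adjusted p = 1.12e-05). All 8 differences passed under each alternative that kept the gene in the test.

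The other 8 members did not pass this test. IRF1, IRF9, HERC5 and STAT2 had differences of 0.06 to 0.17, with adjusted p from 0.458 to 0.747. BST2, which fell in both lines, differed by 0.61 ± 0.23 (SE, adjusted p = 0.0596), SAMD9 by -0.58 ± 0.22 (SE, adjusted p = 0.0594) and SAMD9L by -0.60 ± 0.24 (SE, adjusted p = 0.0706). These 3 passed without LP-1 DMSO replicate 2 or 3, BST2 also with quantile normalization, and SAMD9 and SAMD9L also with TMM-style scaling. ISG20 differed by 0.33 (adjusted p = 0.138) and passed without LP-1 DMSO replicate 2 (adjusted p = 0.0408). STAT2 passed without LP-1 DMSO replicate 3 (adjusted p = 0.0197).

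**Figure D5:**
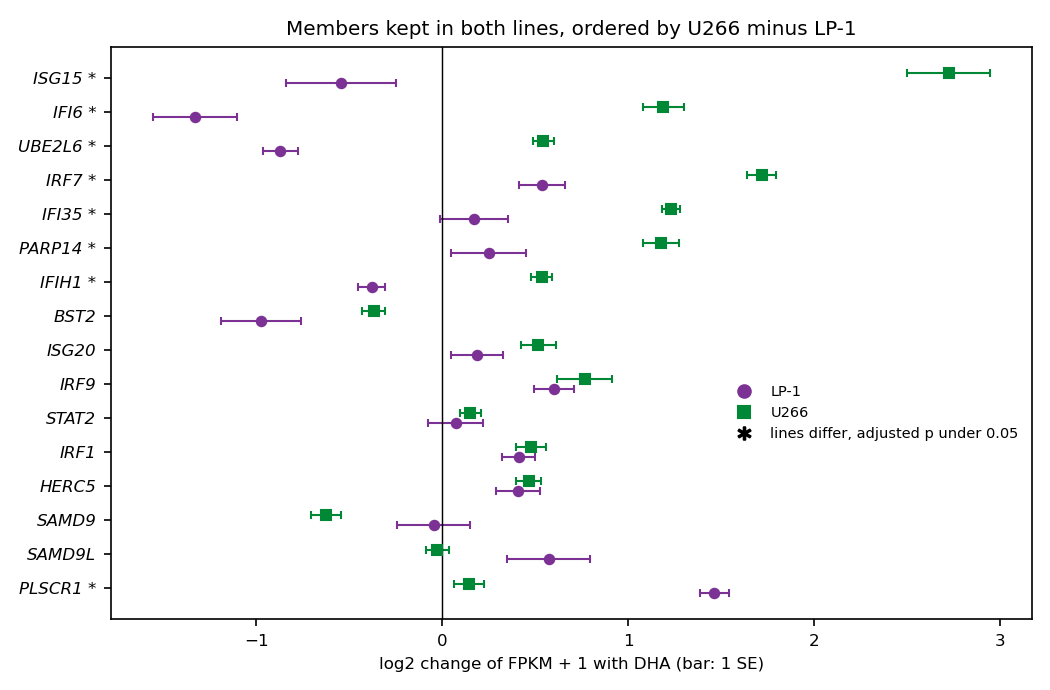
Log2 change of FPKM + 1 with DHA in LP-1 (circles) and U266 (squares) for the 16 members tested in both lines, with bars of 1 SE, ordered by the U266 change minus the LP-1 change; stars mark members whose lines differed at an adjusted p under 0.05. ISG15 (3.26), IFI6 (2.52) and UBE2L6 (1.41) differ most towards U266, and PLSCR1 (-1.32) towards LP-1.

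The genes around the pathway were read from 5 further lists. Of 21 interferon ligand genes none reached the filter in either line. LP-1 held 0 to 2 reads over all ligands per library. In U266, IFNG, the gene of interferon gamma, measured 1.21, 1.24 and 0.679 FPKM with DMSO and 0.557, 0.342 and 0.400 with DHA, on 28, 33 and 12 against 7, 6 and 8 reads. All DHA libraries were below all DMSO libraries, as in 0.713% of the line's genes below the filter. A gene highest in DHA replicate 3 cannot meet this, and 85.8% of those genes were highest in it. With no filter the log2 change of IFNG was -0.50 (adjusted p = 0.0951). IFNG was picked out after its values were seen. IFNB1 had at most 4 reads in any library. DHA replicate 3 held 12 ligands above 0, against 2 to 4 in the other 5 libraries.

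Of 10 receptor and signalling genes, U266 had 9 tested, of which 2 rose and 4 fell (21.1% and 19.6% of all genes), and LP-1 had 7 tested, of which 1 rose and 1 fell (20% and 20.2%). IFNAR1 fell in U266 from 65.3, 59.4 and 64.7 to 48.2, 48.9 and 44.0 FPKM (log2 change -0.42, adjusted p = 2.85e-04) and did not pass in LP-1 (-0.09, adjusted p = 0.348). IFNAR2 did not pass in U266 (-0.21, adjusted p = 0.139). It passed there as lower with quantile normalization and with no variance trend (adjusted p as low as 0.0263). In LP-1 IFNAR2 was below the filter. TYK2 fell in U266 (-0.22, adjusted p = 0.0127, and 0.12 with all 12 libraries in 1 fit) and did not pass in LP-1 (-0.08, adjusted p = 0.618, and 0.0275 without DMSO replicate 3). JAK1 rose in LP-1 (0.44, adjusted p = 0.0339, lost with no filter and without DMSO replicate 1 or any 1 DHA library) and did not pass in U266 (-0.10, adjusted p = 0.165). IFNGR2, a chain of the interferon gamma receptor, fell in both lines, by -0.74 in LP-1 (adjusted p = 0.00375) and -0.48 in U266 (adjusted p = 9.73e-04).

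Of 9 negative regulators, 2 rose and 2 fell of 7 tested in LP-1 (20% and 20.2% of all genes), and 1 rose and 3 fell of 8 in U266 (21.1% and 19.6%). SOCS3, an inhibitor of cytokine receptor signalling, fell in both. It went from 1.74, 1.41 and 1.09 to 0.17, 0.15 and 0.26 FPKM in LP-1 (log2 change -1.01, adjusted p = 0.00219). There it reached 1 FPKM in no DHA library and entered the test only through DMSO. In U266 it went from 6.91, 7.64 and 8.55 to 3.75, 3.33 and 4.33 FPKM (-0.86, adjusted p = 1.20e-04). SOCS1 was below the filter in both lines. PTPN6, a phosphatase that dampens JAK signalling, fell in U266 (-0.58, adjusted p = 0.00116). PTPN1 rose in LP-1 (0.55, adjusted p = 0.0429, lost with no filter and without DMSO replicate 1 or any 1 DHA library). It also rose in U266, from 22.7, 21.3 and 24.7 to 26.6, 28.2 and 27.1 FPKM. That call was lost with TMM-style scaling and with all 12 libraries in 1 fit. The line difference of PTPN1 did not pass.

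Of 16 genes for nucleic acid sensing and interferon induction, 2 rose and 2 fell of 10 tested in LP-1 (20% and 20.2% of all genes), and 1 rose and 4 fell of 11 in U266 (21.1% and 19.6%). STING1, the adaptor for cytosolic DNA sensing, fell in LP-1 from 4.39, 3.29 and 3.99 to 0.65, 0.7 and 0.7 FPKM (log2 change -1.53, adjusted p = 3.00e-04). It reached 1 FPKM in no LP-1 DHA library, so that it entered that test only through DMSO. In U266 it measured 1.05, 1.15 and 1.09 FPKM with DMSO and 0.453, 0.523 and 3.29 with DHA. DHA replicate 3 lay above and the other DHA libraries below the controls, so that the log2 change was 0.01 with that library (adjusted p = 0.98) and -0.50 without it (adjusted p = 0.00831). IRF3, which switches on interferon beta, fell in LP-1 (-0.70, adjusted p = 0.0148, lost without DHA replicate 1 or 2). In U266 it did not pass, but it fell without DHA replicate 3 (-0.24, adjusted p = 0.0149). IKBKE, a kinase that activates IRF3, fell in U266 (-0.54, adjusted p = 0.0158, lost with no filter and without DMSO replicate 2 or 3), and so did the adaptor MYD88 (-0.38, adjusted p = 0.00325). Without DHA replicate 3, 6 of the 11 fell in U266, against 20.6% of all genes.

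Of 40 further interferon-induced genes, 15 rose and 1 fell of 29 tested in U266, against 21.1% and 19.6% of all genes, and 14 rose and 1 fell without DHA replicate 3. In LP-1, 5 rose and 7 fell of 25 tested, against 20% and 20.2% of all genes. Of the tested genes, RTP4 and LY6E entered only through DMSO in LP-1, and PARP12 and HELZ2 only through DHA in U266. EIF2AK2, the kinase PKR that halts translation on double-stranded RNA, rose in U266 from 14.6, 13 and 14.9 to 35.4, 36.7 and 34.7 FPKM (log2 change 1.27, adjusted p = 2.03e-07). In LP-1 its groups overlap (0.30, adjusted p = 0.348), and the lines differed by 0.98 (adjusted p = 0.0111). SLFN5, a Schlafen family protein, rose in both lines and by more in LP-1. It went from 2.24, 2.18 and 1.12 to 16.5, 16.6 and 15.8 FPKM in LP-1 (log2 change 2.63, adjusted p = 2.31e-04) and from 1.86, 1.55 and 1.66 to 4.85, 5.74 and 5.16 in U266 (1.21, adjusted p = 1.30e-05), a difference of -1.42 (adjusted p = 2.67e-04). SHFL, which blocks viral translation, fell in LP-1 (-1.21, adjusted p = 2.64e-04).

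Set beside the calls, the ISRE letters shown above were in genes of every outcome. In U266 they lay in 13 of the 17 risen members with a promoter window, in 3 of the 4 that fell and in 1 of the 3 that did not pass. In LP-1 they lay in 2 of 5 that rose, 3 of 4 that fell and 4 of 7 that did not pass. BST2 and SAMD9, which fell in U266, hold copies, and so does PLSCR1, which rose in LP-1 and did not pass in U266.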

How the data were processed

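RNA-seq was made from 3 libraries in each of 4 groups (LP-1 and U266, DHA or DMSO for 12 h). The authors deposited FPKM values in 1 table per line, and per the submitters' processing notes the builds were GRCm38 and mm10, although the genes in both tables are human. Aligner, counter and gene annotation were not given in the sources used here. No label says that replicates came from separate cultures, so the p-values reflect only the spread between these samples, which may be technical. Genes were matched through GENCODE release 29.

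Each line was fitted alone with limma 3.58.1 (R 4.3.3, variance trend) on log2(FPKM + 1), for genes at 1 FPKM or more in at least 3 of the 6 libraries, as a two-sided test at a threshold of 0.05 after Benjamini-Hochberg adjustment over every gene tested. Fold changes on this scale understate the change of low genes. The line difference is the interaction contrast over all 12 libraries, for genes kept in both lines. The script was tested on simulated data. Of 100 genes given a log2 change of 0.5, it recovered 14 in LP-1 and 55 in U266. Of 100 genes given a log2 change of 1, it recovered 62 in LP-1 and 95 in U266. The part of this difference in the members that did not pass in LP-1 was not tested. FPKM steps and exon lengths gave whole reads (within 0.1 read, for values up to 100 reads) for 93.9 to 94.7% of U266 values and for 87.1 to 90.0% of LP-1 values (only genes short enough for values rounded to 0.01 FPKM to show it), and those reads were tested with limma-voom as an alternative. Of the recovered numbers up to 20 reads, 39.4 to 40.9% were even in LP-1, 76.2 to 77.9% in 5 U266 libraries and 52.4% in the other one, DHA replicate 3.

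The members and lists were chosen with earlier results of these data known. Values in every library are given for members called with a log2 change of at least 0.5 (up to the 12 largest per line) and for a set of 16 named genes. The 5 context lists are given by counts, with 8 genes named whatever their result (1 further gene of the rule is not reported here) and up to 2 called genes of largest change per list and line. Other genes in the text were named after their values were seen. Alternatives were the pseudocount (0.1), the filter (none, or a mean of 5 FPKM), TMM-style and quantile scaling, no variance trend, a replicate block, recovered reads, 1 fit of all 12 libraries, and each library left out.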

Additional observations from a re-analysis of the deposited data

Results flagged for a closer look

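In 8 members the DHA effect differed between the lines by the interaction test, as the U266 log2 change minus that of LP-1. The difference was 3.26 for ISG15, 2.52 for IFI6, 1.41 for UBE2L6, 1.18 for IRF7, 1.06 for IFI35, 0.93 for PARP14, 0.91 for IFIH1 and -1.32 for PLSCR1. In ISG15, IFI6, UBE2L6 and IFIH1 the changes had opposite signs, although that of ISG15 in LP-1 did not pass (adjusted p = 0.182).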

How the results depend on the processing

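The 63 member results gave 983 recomputed values under the alternatives. Of these, 933 kept their direction and their side of the threshold, 17 lost a call, 17 gained one and 16 changed sign, the last only in results that had not passed. Calls that held in every alternative that kept the gene in the test were 5 of 10 in LP-1, 24 of 26 in U266 and 8 of 8 for the line difference. In LP-1 the 6 members that rose became 10 with no filter and 1 at a mean of 5 FPKM (8 members tested), and 3 to 8 when 1 library was left out; the 3 stood without DHA replicate 1 or 2. In U266 the 22 that rose became 13 at that mean (20 tested) and 11 in 1 fit of all 12 libraries (16 tested), where the 4 that fell became 1. The 8 line differences became 24 with no filter (42 tested) and 4 at that mean (8 tested). Correlations of same-numbered samples were 0.07, 0.02 and 0.18 in LP-1 and -0.04, -0.08 and -0.02 in U266. Not every sample correlated best with its own number. With 3 samples per group, these values cannot decide whether same-numbered samples were paired. With the replicate block the counts stayed at 6 and 4 in LP-1, 22 and 4 in U266 and 8 for the line difference. TMM-style scaling moved the median line difference of all genes from -0.017 to -0.15, and members are to be read against that.

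Changes of sign under scaling were -0.022 for MX2 in U266 (TMM-style), 0.0044 for SAMD9L in U266 (quantile), -0.035 for IKBKE in LP-1 (quantile) and, with TMM-style scaling, -0.059 for the STAT2 line difference, -0.053 for the IRF1 line difference and -0.063 for the HERC5 line difference. The HERC5 line difference was -0.25 with a pseudocount of 0.1 and -0.32 on recovered reads, where the IRF1 line difference was -0.013. STING1 in U266 gave -0.19 (pseudocount 0.1), -0.067 (TMM-style), -0.10 (quantile) and -0.090 (recovered reads). Leaving out 1 library moved STING1 in U266 from -0.50 to 0.28, IRF3 in U266 from -0.24 to 0.022, SAMD9L in U266 from -0.075 to 0.013, STAT2 in LP-1 from -0.094 to 0.16, SAMD9 in LP-1 from -0.26 to 0.12, IFI35 in LP-1 from -0.0014 to 0.37, TYK2 in LP-1 from -0.21 to 0.00066 and IKBKE in LP-1 from -0.073 to 0.094. It moved the STAT2 line difference from -0.013 to 0.25 and the HERC5 line difference from -0.00289 to 0.13. The causes were not tested. ISG15 in LP-1 rests on 3 to 34 reads per library, and the part of depth in its missing call was not tested.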
